A study of Mus musculus with 28 samples.

Results

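The genes of the endogenous opioid system were followed in the amygdala of mice that drank water or alcohol. They are the 4 precursor genes *Penk*, *Pdyn*, *Pomc* and *Pnoc* and the 4 receptor genes *Oprm1*, *Oprd1*, *Oprk1* and *Oprl1*, chosen by symbol in the GENCODE M21 annotation. All 8 were among the 49477 genes listed in the count tables of both batches, and all 8 were among the 16266 genes that averaged 10 or more counts per mouse, on which the tests were run. *Pomc* was close to that limit, with a mean count of 13.1.

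RNA was sequenced from bilateral micropunches aimed at the central and basolateral amygdala of 28 adult female C57BL6/J mice, each housed alone. The Water Drinking group (n = 10) received only water, the Acute Drinking group (n = 9) received a choice of 20% ethanol or water for a single session, and the Chronic Drinking group (n = 9) had that choice every second day for about a month. Tissue was taken on the morning after the last session began, with the alcohol tube still on the cage of the drinking groups. The mice were of 2 separately purchased batches, with 4 Water, 4 Acute and 3 Chronic mice in the first batch, while the second had 6, 5 and 6. Every group was of 1 sex and 1 strain, and each library came from a single mouse. Total counts ran from 20393352 to 22569562 in the first batch and from 20004380 to 20890964 in the second.

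Opioid peptides are cut from larger precursor proteins at pairs of basic residues. *Penk* encodes proenkephalin, the source of Met- and Leu-enkephalin, *Pdyn* encodes prodynorphin, the source of the dynorphins, *Pomc* encodes pro-opiomelanocortin, the source of beta-endorphin and of pituitary hormones, and *Pnoc* encodes prepronociceptin, the source of nociceptin. Enkephalins act mainly at delta and mu receptors (*Oprd1* and *Oprm1*), dynorphins at kappa receptors (*Oprk1*), beta-endorphin at mu receptors and nociceptin at its own receptor (*Oprl1*). All of these receptors couple to inhibitory G proteins, which reduce cyclic AMP, open potassium channels and close calcium channels. In the forebrain, *Penk* is a classical marker of the striatal neurons that carry D2 dopamine receptors, *Pdyn* is a marker of the striatal neurons that carry D1 receptors, and both peptides are also made by neurons of the central amygdala.

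The precursors share a short coding core, which is shown because their products have it in common. The capitals mark 4 codons for tyrosine, glycine, glycine and phenylalanine (phenylalanine first in *Pnoc*), with 2 codons before them and 3 after. Each stretch was read on the coding strand from the GENCODE M21 transcripts (GRCm38). *Penk* held 7 copies of the core in exon 2 of 2, on the minus strand of chromosome 4, followed by methionine in 6 copies and by leucine in the sixth copy along the coding sequence. *Pdyn* held 3 copies in exon 4 of 4, on the minus strand of chromosome 2, all followed by leucine. *Pomc* held 1 copy, in exon 4 of 4 on the plus strand of chromosome 12, and *Pnoc* 1, in exon 3 of 4 on the minus strand of chromosome 14.
Penk copy 1, chr4:4134328-4134354: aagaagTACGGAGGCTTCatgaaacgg
Penk copy 6, chr4:4133935-4133961: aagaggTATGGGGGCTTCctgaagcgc
Pdyn copy 1, chr2:129688232-129688258: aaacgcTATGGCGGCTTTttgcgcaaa
Pdyn copy 2, chr2:129688124-129688150: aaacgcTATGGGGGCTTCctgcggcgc
Pomc copy 1, chr12:3960367-3960393: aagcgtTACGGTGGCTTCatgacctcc
Pnoc copy 1, chr14:65404872-65404898: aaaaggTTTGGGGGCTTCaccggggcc

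In each of the 12 stretches, both codons before the core encoded lysine or arginine. The core spelled with tyrosine was found in 72 of 21812 coding genes (0.33%), and 4 genes held 3 or more copies, *Penk* and *Pdyn* among them. The core spelled with phenylalanine was found in 107 genes (0.491%), so the core alone does not set the family apart.

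Levels of the members were set on a common scale as counts scaled to library size (CPM) per kb of exon and spanned about 3 orders of magnitude. *Penk* was far above the others, with a median of 338 CPM per kb over the 28 mice (104.6 to 554), and its CPM ranked 227 among the 16266 genes. *Pdyn* followed at 30.7 CPM per kb (11.9 to 51.6), and its range overlapped that of *Oprl1*, at 14.3 (11.9 to 16.8). *Oprl1*, the nociceptin receptor gene, was thus the highest of the receptor genes on this scale, and its range did not reach that of its own ligand gene *Pnoc*, at 5.001 (3.48 to 7.79).

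The delta and kappa receptor genes lay close to *Pnoc*, and their ranges overlapped. *Oprd1* had a median of 3.48 CPM per kb (2.13 to 5.26), and *Oprk1* had 2.85 (1.51 to 4.04). *Pomc* (0.457, 0.194 to 0.899) and *Oprm1* (0.324, 0.155 to 0.595) were lowest, did not overlap the genes above them and overlapped each other. The place of the mu receptor gene depended on the length used, since 31 transcripts are annotated for it. With the median transcript length in place of all exonic bases, *Oprm1* had a median of 1.81 CPM per kb and *Pomc* 0.616, and *Oprk1*, at 9.15, lay above *Pnoc* and *Oprd1*.

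**Figure D1:**
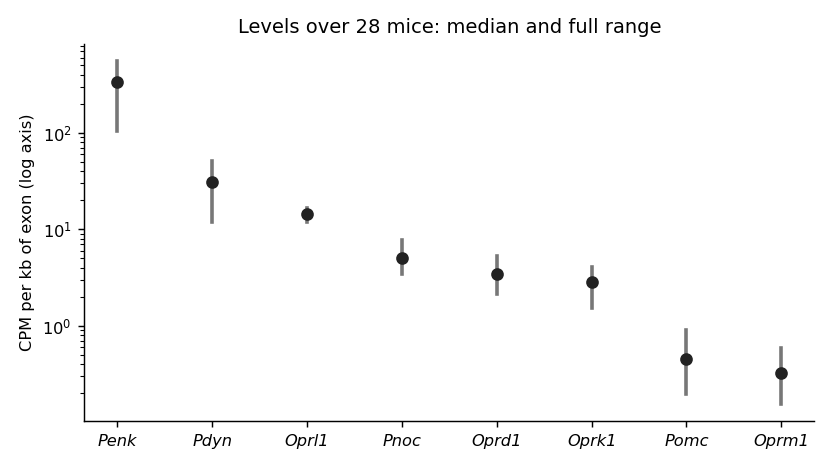
Levels of the 8 genes in CPM per kb of exon on a log axis, with the median (point) and the full range (line) over 28 mice. *Penk* lies at a median of 338 and *Oprm1* at 0.324, and the 2 lines at the right do not reach those to their left.

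The genes also differed in how much mice of 1 group and batch varied. Around the means of group and batch, the SD of log2 CPM was 0.534 for *Penk* and 0.506 for *Pdyn*, at the 95.7 and 94.8 percentiles of all tested genes, although their high counts leave little counting error (0.0137 and 0.0333 on the log2 scale). *Oprl1* was at the 50th percentile, with an SD of 0.138. *Oprm1* (0.515) and *Pomc* (0.441) varied as well, but with mean counts of 53.8 and 13.1 their counting error alone is 0.197 and 0.398. The spread of *Pomc* is thus close to its counting error at this depth.

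*Penk* (chromosome 4, 4133531 to 4138819, minus strand) had between 3537 and 14900 normalized counts in Water mice, with a median of 13100. It had between 9265 and 18730 in Acute mice (median 12740) and between 6429 and 17370 in Chronic mice (median 9202). The groups overlapped throughout, and the widest span was within the Water group, where Water mice 42 and 43 of the first batch had 4394 and 3537 counts and Water mice 40 and 41 of the same batch had 13622 and 13929. The mean was 10780 ± 4274 (SD, n = 10) in Water, 12870 ± 2775 (n = 9) in Acute and 9992 ± 3305 (n = 9) in Chronic mice.

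For *Penk*, the log2 fold change was 0.28 in Acute against Water mice (standard error 0.21, edgeR adjusted p = 0.69, higher than the Water mean in 7 of 9 mice). In Chronic against Water mice it was -0.11 (standard error 0.21, adjusted p = 0.892, 95% interval -0.55 to 0.32), and in Chronic against Acute mice -0.40 (standard error 0.22, adjusted p = 0.998), where 8 of 9 Chronic mice lay under the Acute mean and the exact permutation test within batches gave an unadjusted p of 0.0306. The comparison with Water leaned on 2 mice. Without Water mice 42 and 43, the Acute value was 0.0492 and the Chronic value -0.32 (adjusted p = 0.953 and 0.361). As differences of mean log2 CPM, the Acute values within the first and second batch were 0.764 and 0.118, and the Chronic values were 0.294 and -0.249. In edgeR, the effect in the second batch minus that in the first was -0.38 for Acute and -0.264 for Chronic mice on the log2 scale, and neither passed (adjusted p = 0.999 and 0.938).

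*Pdyn* (chromosome 2, 129686565 to 129699844, minus strand) had 719 to 2491 normalized counts in Water mice (median 1787), 1661 to 3085 in Acute mice (median 2079) and 708 to 2941 in Chronic mice (median 1526). Its lowest mice were Water mouse 43 and Chronic mouse 2, while every Acute mouse had 1661 or more. The log2 fold change was 0.31 for Acute against Water (standard error 0.20, edgeR adjusted p = 0.642), -0.07 for Chronic against Water (adjusted p = 0.935) and -0.38 for Chronic against Acute mice (standard error 0.21, adjusted p = 0.998, exact permutation p = 0.0629). No difference passed, and the groups overlapped in each comparison. As for *Penk*, the values against Water leaned on Water mice 42 and 43, without which they were 0.129 and -0.231 (adjusted p = 0.85 and 0.595). Within the batches, the differences of mean log2 CPM were 0.668 and 0.118 for Acute and 0.229 and -0.301 for Chronic mice.

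*Pnoc* (chromosome 14, 65400673 to 65425472, minus strand) had 155 to 291 normalized counts in Water mice (median 202.5), 175 to 348 in Acute mice (median 239) and 196.5 to 317 in Chronic mice (median 224.5). In both drinking groups 7 of 9 mice lay above the Water mean. The log2 fold changes were 0.26 in Acute (standard error 0.13, edgeR p = 0.0508, adjusted p = 0.526) and 0.20 in Chronic mice (standard error 0.13, adjusted p = 0.614).

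*Pomc* (chromosome 12, 3954951 to 3960642, plus strand), which is made mainly outside the amygdala, had 5 to 23 reads per mouse. Its medians were 12.1, 12.8 and 12.8 normalized counts in Water, Acute and Chronic mice. The 95% interval of its log2 fold change against Water was -0.35 to 0.58 for Acute and -0.22 to 0.70 for Chronic mice. The counts are thus compatible with no change and with changes within these limits.

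Among the receptors, *Oprl1* (chromosome 2, 181715016 to 181720985, plus strand) was measured most precisely. It had 920 to 1300 normalized counts in Water mice (median 1076), 981 to 1294 in Acute mice (median 1104) and 1069 to 1304 in Chronic mice (median 1145). Of the 9 Chronic mice, 8 lay above the Water mean, while the ranges overlapped. Its log2 fold change was 0.13 in Chronic mice (standard error 0.060, edgeR p = 0.0453, adjusted p = 0.467, exact permutation p = 0.0404), and the difference of mean log2 CPM was 0.125 and 0.134 within the batches. For the Acute group it was 0.10 (standard error 0.060, adjusted p = 0.616).

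*Oprd1* (chromosome 4, 132110726 to 132144486, minus strand) had 214 to 356 normalized counts in Water mice (median 305), 205 to 345 in Acute mice (median 263.5) and 177 to 437.5 in Chronic mice (median 291). Within the batches 8 of 9 Acute mice were under the Water mean, and the log2 fold change was -0.16 (standard error 0.11, edgeR p = 0.15, adjusted p = 0.646, exact permutation p = 0.0115). The log2 fold change was 0.03 in Chronic against Water mice (standard error 0.10, adjusted p = 0.947) and 0.19 in Chronic against Acute mice (standard error 0.11, adjusted p = 0.998). The Chronic group had the widest spread, from Chronic mouse 1 to Chronic mouse 2, and enters the shared estimate of spread. With only Water and Acute mice in the fit, edgeR's p was 0.014 and the adjusted p 0.428.

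*Oprk1* (chromosome 1, 5588466 to 5606131, plus strand) had 286 to 686 normalized counts in Water mice (median 582), 473.5 to 765 in Acute mice (median 544) and 359.5 to 698 in Chronic mice (median 513). Water mouse 43 was lowest here too. The log2 fold changes were 0.12 in Acute and -0.05 in Chronic mice against Water (standard error 0.12 for both, adjusted p = 0.786 and 0.921), and -0.00691 and -0.165 without Water mice 42 and 43 (adjusted p = 0.993 and 0.501).

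*Oprm1* (chromosome 10, 6758506 to 7038198, plus strand) had 25.8 to 81.4 normalized counts in Water mice (median 62.6), 27.8 to 98.9 in Acute mice (median 47.8) and 26.5 to 64.9 in Chronic mice (median 48.2). Its log2 fold changes were -0.09 and -0.25 against Water (standard error 0.22 for both, adjusted p = 0.932 and 0.732). Exons of *Oprm1* overlap those of *Ipcef1*, and exons of *Penk* those of *A830012C17Rik*, in each case on the opposite strand. Whether strand was used in the quantification is not given in the sources used here.

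**Figure D2:**
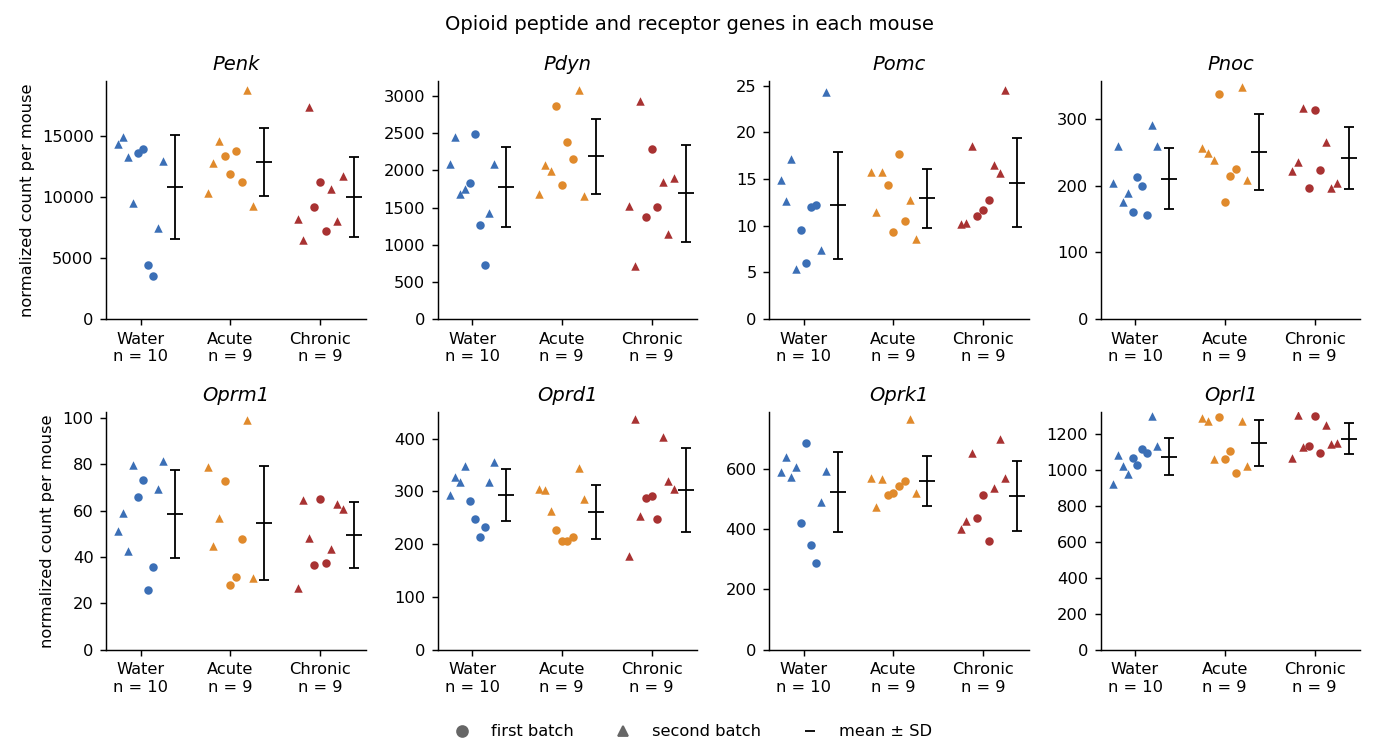
Normalized counts of the 8 genes in each mouse by drinking group (circles, first batch; triangles, second batch), with the mean ± SD of each group beside the points and each axis starting at 0. The groups overlap in every panel, and the 2 lowest *Penk* points are Water mice 42 and 43, at 4394 and 3537.

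Over the 8 genes and 3 comparisons, 0 of 24 differences passed after adjustment over all genes, 1 had an unadjusted edgeR p under 0.05 (*Oprl1* in Chronic mice) and 3 had an exact p under 0.05. This was read against the background of all 16266 genes. After adjustment, 0% of all genes were called in Acute against Water mice, 0.0184% (3 genes) in Chronic against Water mice and 0% in Chronic against Acute mice. At an unadjusted p under 0.05, the shares of all genes were 9.52%, 10.5% and 4.44%, beside 0, 1 and 0 of the 8 members. The median log2 fold change of the members was 0.12, -0.01 and -0.11 in the 3 comparisons, beside 0.00115, 0.0022 and -0.000893 over all genes. Between the batches, the Acute and Chronic effects of the members did not differ after adjustment, with adjusted p-values from 0.862 to 1, in a test that called 0% and 0.00615% of all genes. The Acute and Chronic comparisons share the Water mice.

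The large spread of *Penk* and *Pdyn* was set beside the content of the punches. A striatum score was the mean log2 CPM, with batch means removed, of 8 genes for receptors and signalling proteins of striatal projection neurons, among them *Drd1*, *Drd2*, *Adora2a*, *Gpr6*, *Rgs9*, *Pde10a* and *Ppp1r1b*. All 8 were detected, with mean counts from 189 (*Gpr6*) to 6217 (*Ppp1r1b*), and *Drd2* ranged from 215 to 1706 normalized counts between mice. A central amygdala score was made in the same way from *Prkcd*, *Nts*, *Crh*, *Tac2*, *Calcrl* and *Dlk1*. Genes of the labelled tissue were present too, with mean counts from 142 to 1026 for these 6 and from 166 to 26590 for 6 genes of pallial excitatory neurons, the main cells of the basolateral amygdala. In bulk tissue, fewer cells of a type and less RNA per cell cannot be told apart.

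The striatum score had a range of -1.27 to 0.975 in Water, -0.526 to 0.679 in Acute and -0.805 to 0.429 in Chronic mice. The lowest mice were Water mice 43 and 42 (-1.27 and -1.26), the pair with the fewest *Penk* counts. The same 2 mice were lowest of the 28 in the oligodendrocyte score (-0.609 and -0.4) and in the GABAergic interneuron score (-0.276 and -0.22). The latter holds *Gad1* and *Gad2*, which are not limited to interneurons, beside *Sst*, *Pvalb*, *Vip* and *Lamp5*. Water mouse 43 was highest in the pallial excitatory neuron score (0.555), where Water mouse 42 had 0.0728. In the claustrum and endopiriform score they had 0.6215 and 0.01. The part of these markers in the results was not tested. The group difference in the striatum score was 0.172 for Acute against Water (exact permutation p = 0.572), -0.277 for Chronic against Water (exact p = 0.393) and -0.449 for Chronic against Acute mice (exact p = 0.0254). The central amygdala score differed by 0.221 for Acute against Water mice (exact p = 0.0467). Of its genes, *Nts*, which encodes neurotensin and was singled out after its values were seen, had a log2 fold change of 0.55 in this comparison (edgeR p = 0.000239, adjusted p = 0.194, 8 of 9 mice above the Water mean). Without *Nts*, the score differed by 0.157 (exact p = 0.126). Over 8 marker lists and 3 comparisons, 0 of 24 differences passed after adjustment, with a lowest adjusted p of 0.56. The other lists were pallial excitatory neurons, claustrum and endopiriform nucleus, GABAergic interneurons, oligodendrocytes, choroid plexus and immediate early genes, and the choroid plexus score varied most (SD 1.62). Of 5 hypothalamic peptide genes, none reached a mean of 10 counts (0.5 for *Oxt* to 7.43 for *Avp*).

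*Penk* moved with the striatum score from mouse to mouse. With batch means removed, Pearson's r was 0.939 over 28 mice and Spearman's rho 0.922 (permutation within batches, p = 1e-05 for both, the smallest that 100000 resamples can give, adjusted p = 5.33e-05 and 8e-05 over 16 relations). Within the batches r was 0.964 and 0.912, and it was 0.908 without Water mice 42 and 43. The score accounted for 88.1% of the variance of log2 *Penk*, and the SD between mice fell from 0.539 to 0.186 once it was taken out.

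*Pdyn* followed both scores. Its r was 0.783 with the striatum score (rho 0.793, adjusted permutation p = 5.33e-05, 0.724 without the 2 farthest mice) and 0.807 with the central amygdala score (rho 0.638, adjusted permutation p = 5.33e-05, 0.65 without the 2 farthest mice). Within the batches, r was 0.779 and 0.791 with the first score and 0.878 and 0.755 with the second. Together, the 2 scores accounted for 92.5% of the variance of *Pdyn* and 93.7% of that of *Penk*. The slope of log2 *Penk* was 0.768 per unit of striatum score and 0.554 per unit of central amygdala score, and the slopes of *Pdyn* were 0.486 and 1.26. The scores themselves correlated with an r of 0.366.

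**Figure D3:**
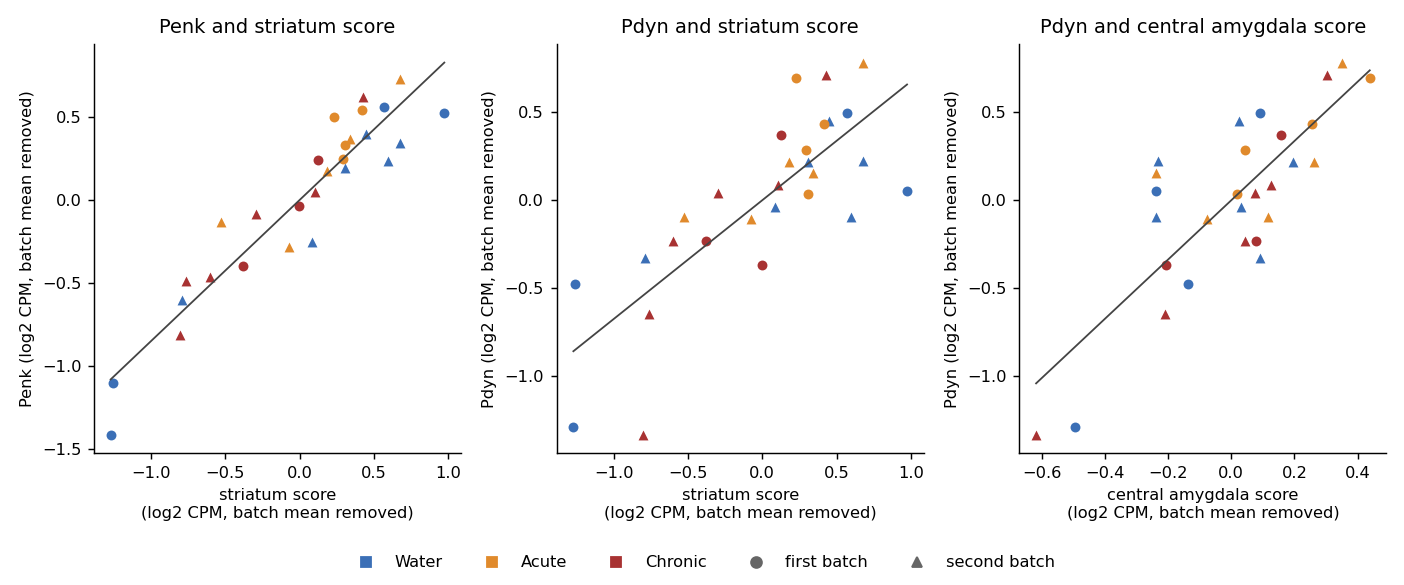
*Penk* against the striatum score and *Pdyn* against the striatum and central amygdala scores, 1 point per mouse (log2 CPM, batch means removed; colour, group; circles, first batch; triangles, second batch), with a least-squares line. *Penk* points follow the line closely (r = 0.939), and the *Pdyn* panels have r = 0.783 and 0.807.

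The other members were less tied to the scores. *Oprk1* had an r of 0.668 with the striatum score (rho 0.604, adjusted permutation p = 0.000736), 0.774 and 0.536 within the batches and 0.523 without the 2 farthest mice. *Pnoc* had an r of 0.124 with the striatum score and of 0.685 with the central amygdala score (rho 0.727, adjusted permutation p = 0.00032 for r), which was 0.823 and 0.575 within the batches and 0.76 without Chronic mouse 2 and Water mouse 43. The r of *Penk* with the central amygdala score was 0.562 (rho 0.405, adjusted permutation p = 0.00552 and 0.0729, 0.659 and 0.487 within the batches), and that of *Oprk1* was 0.49 (rho 0.408, adjusted p = 0.023 and 0.0729, 0.68 and 0.32 within the batches). Both rested on Chronic mouse 2 and Water mouse 43, without which they were 0.327 and 0.254. For *Pomc*, *Oprm1*, *Oprd1* and *Oprl1*, no adjusted p of r was under 0.05 with either score (lowest 0.181). The r of *Oprl1* with the central amygdala score was 0.296 (rho 0.424, adjusted permutation p = 0.212 and 0.0729, 0.402 and 0.243 within the batches) and 0.574 without Chronic mouse 2 and Water mouse 43.

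Among the members themselves, 7 of 28 pairs had an adjusted permutation p of r under 0.05. The closest were *Penk* and *Pdyn*, with an r of 0.891 (rho 0.907, adjusted p = 0.00014, 0.899 and 0.905 within the batches, 0.875 without Water mice 42 and 43). *Oprk1* went with *Penk* (r = 0.775, rho 0.705, adjusted permutation p = 0.00014, 0.87 and 0.633 within the batches, 0.665 without these mice). It also went with its own ligand gene *Pdyn* (r = 0.725, rho 0.706, adjusted permutation p = 0.00028, 0.881 and 0.569 within the batches, 0.597 without Chronic mouse 2 and Water mouse 43). The ligand and receptor genes *Pnoc* and *Oprl1* had an r of 0.635 (rho 0.551, adjusted permutation p = 0.0028 and 0.0238, 0.706 and 0.619 within the batches, 0.519 without Acute mouse 33 and Chronic mouse 38). *Penk* and *Oprd1*, a ligand gene and the gene of its main receptor, had an r of -0.019 over the same mice, and *Pomc* and *Oprm1* had -0.0551.

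The genes most like *Penk* over the 28 mice, among all 16265 others, were *Elmod1* (r = 0.966), *Gpr6* (0.951), *Pde8b* (0.951), *Drd2* (0.95) and *Adcy5* (0.948), and 38 genes had an r above 0.9. Of the striatum list, *Rgs9* ranked 15, *Adora2a* 23, *Drd1* 39, *Ppp1r1b* 42 and *Pde10a* 82, so the genes of D2-receptor neurons stood nearer to *Penk* than *Drd1* did. For *Pdyn*, the highest r of these 7 striatum genes was that of *Ppp1r1b* (0.827), followed by *Gpr6* (0.811), *Drd2* (0.793), *Adora2a* (0.781), *Rgs9* (0.767), *Drd1* (0.713) and *Pde10a* (0.665). The genes nearest to *Pdyn* were *Dlx6* (0.969), *P2ry1* (0.922) and *Ebf1* (0.913). These values are descriptions over 28 mice, and the genes compared were read from the same libraries and punches.

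For *Pnoc* the nearest genes were *Gaa* (0.898), *Tmem130* (0.879) and *Gabrg1* (0.863), and for *Oprl1* they were *Sall2* (0.838), *Vat1* (0.828) and *Wdr6* (0.828). *Oprk1* was nearest to *Sorcs1* (0.868), *Kcnd2* (0.843) and *Pde1c* (0.836), and *Oprm1* to *Trp53bp1* (0.871), *Peg3* (0.84) and *Nhs* (0.833). The 3 genes nearest to *Oprd1* were *Dido1* (0.884), *Gse1* (0.865) and *Tcf20* (0.863). No gene reached 0.7 with *Pomc*, for which *Ppil3* (0.675), *Cipc* (0.659) and *Plekhm2* (0.654) were nearest.

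Since *Penk* followed the striatum score so closely, it was also compared relative to the score of the same punch. *Penk* minus the striatum score, as a difference of log2 values, was -0.145 ± 0.221 (SD, n = 10) in Water, 0.0698 ± 0.178 (n = 9) in Acute and 0.0915 ± 0.123 (n = 9) in Chronic mice. The range was -0.447 to 0.186 in Water, -0.212 to 0.394 in Acute and -0.0569 to 0.277 in Chronic mice, so the groups overlapped. The 4 lowest values were Water mice 40 (-0.447), 3 (-0.361), 1 (-0.335) and 4 (-0.335). Their striatum scores were 0.975, 0.596, 0.678 and 0.0828. The fitted slope of log2 *Penk* on the score was 0.851. Subtracting the whole score therefore lowers the value more in mice with a high score than that slope would.

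The difference was 0.215 for Acute against Water mice (exact permutation p = 0.0369, 0.205 and 0.218 within the batches) and 0.237 for Chronic against Water mice (exact p = 0.0149, 0.134 and 0.294 within the batches). Adjusted over 6 such comparisons of *Penk* and *Pdyn*, the exact p-values were 0.111 and 0.0894, so neither passed. Chronic and Acute mice differed by 0.0217 (exact p = 0.771). Without Water mice 42 and 43, the values were 0.253 and 0.274 (exact p = 0.0219 and 0.00812).

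Leaving out 1 mouse at a time, the Chronic value had an exact p under 0.05 in 19 of the 19 fits that left out a mouse of the groups compared, and the Acute value in 12 of 19. The Acute value missed it without Acute mouse 1, 33 or 35 or Water mouse 1, 3, 4 or 40 (0.172 to 0.208, exact p from 0.0581 to 0.0745). With the score limited to *Drd2*, *Adora2a* and *Gpr6*, the genes of D2-receptor neurons, the differences were 0.0721 and 0.184 (exact p = 0.585 and 0.178). For *Pdyn*, the differences relative to the striatum score were 0.174 and 0.178 against Water (exact p = 0.383 and 0.392).

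**Figure D4:**
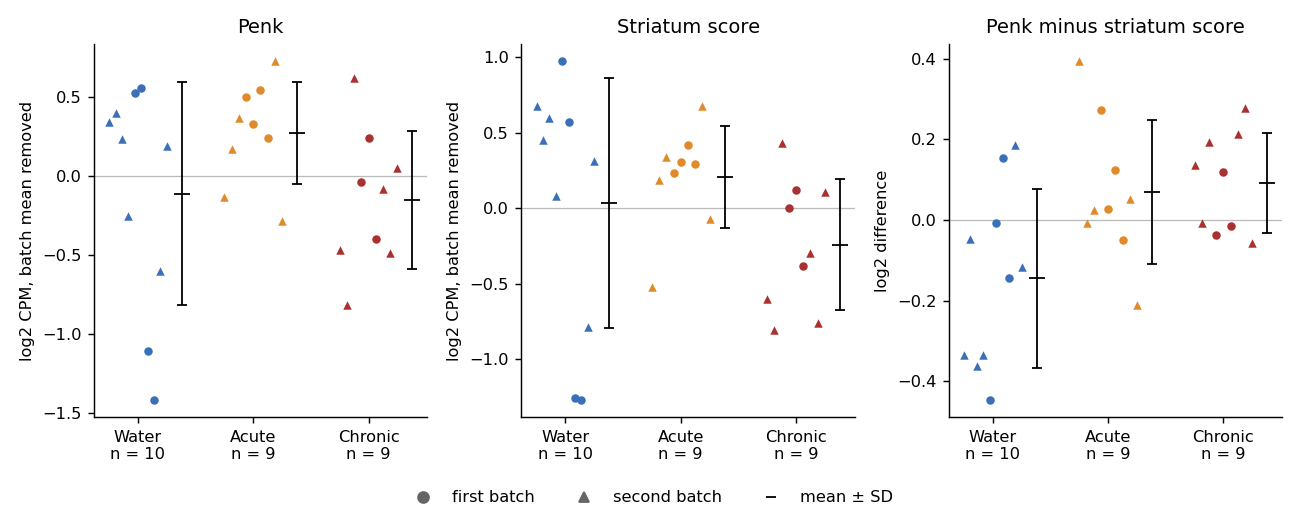
*Penk*, the striatum score and their difference in each mouse (log2 CPM, batch means removed; circles, first batch; triangles, second batch), with the mean ± SD of each group. The spread of Water mice is from -1.27 to 0.975 in the score and from -0.447 to 0.186 in the difference.

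The striatum score was then entered as a covariate in edgeR beside batch. The log2 fold change of *Penk* was 0.24 in Acute (standard error 0.070, p = 0.00176, adjusted p = 0.307) and 0.19 in Chronic mice (standard error 0.071, p = 0.0116, adjusted p = 0.313) against Water, with 95% intervals of 0.10 to 0.38 and 0.05 to 0.34. The standard error was thus smaller than the 0.21 of the fit without the score, and the Chronic value had changed sign from -0.11. In Chronic against Water mice, the named genes of the score had log2 fold changes from -0.52 (*Pde10a*) to -0.29 (*Adora2a*). By edgeR, these had p = 0.0236 and 0.299, and adjusted p = 0.383 and 0.746. Whether the *Penk* value at equal score reflects *Penk* or the genes of the score was not tested. In these fits 0% and 0.0246% of all genes were called in Acute and Chronic against Water mice, and 10.5% and 10.5% had an unadjusted p under 0.05. Between Chronic and Acute mice, *Penk* differed by -0.05 (adjusted p = 1) in a fit that called 0% of all genes, with 3.47% at an unadjusted p under 0.05. No other member had an unadjusted p under 0.05 in these fits. With the striatum and central amygdala scores both in the fit, the values of *Penk* were 0.153 and 0.148 (p = 0.0149 and 0.0151, adjusted p = 0.697 and 0.375). With the central amygdala score alone beside batch, they were 0.06 and -0.20 (adjusted p = 0.979 and 0.739), and with *Nts* left out of that score 0.132 and -0.165 (adjusted p = 0.917 and 0.791). For *Pdyn* in Acute mice, the value was -0.0433 with *Nts* in the score and 0.0592 without it (adjusted p = 0.978 and 0.946).

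**Figure D5:**
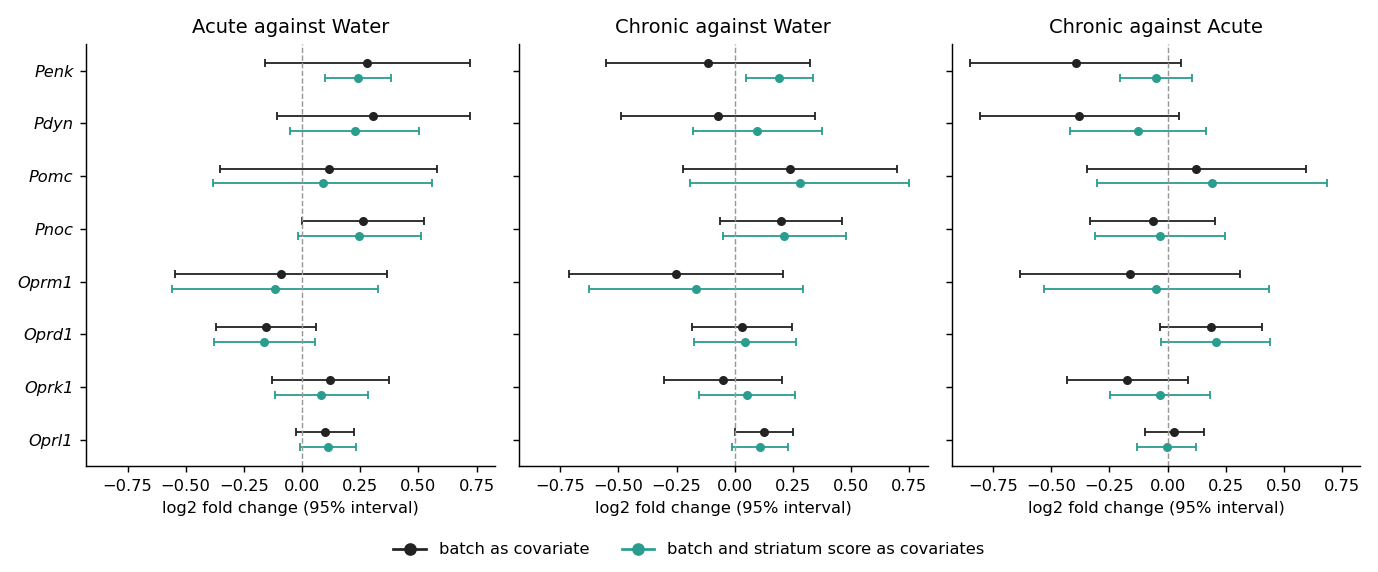
Log2 fold change and 95% interval of each member in the 3 comparisons, with batch as covariate (black) and with batch and striatum score as covariates (green). Adding the score narrows the *Penk* intervals against Water to 0.10 to 0.38 and 0.05 to 0.34, and moves the *Penk* value of Chronic against Acute mice from -0.40 to -0.05.

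The machinery around the peptides and receptors was read from 4 gene lists. By edgeR, 0 of their 44 tested genes passed in any comparison after adjustment, and 3 had an unadjusted p under 0.05 in Acute against Water, 5 in Chronic against Water and 1 in Chronic against Acute mice, beside 9.52%, 10.5% and 4.44% of all genes. limma-voom called 0 as well, beside 0.0123% of all genes in both comparisons with Water, with 2, 6 and 1 under 0.05 unadjusted, beside 10.2%, 10.5% and 5.13% of all genes. DESeq2 with batch in the model called 0 in Acute mice, beside 0.0965% of the genes to which it gave an adjusted p, and 1 in Chronic mice, beside 0.437%. ComBat-seq followed by DESeq2 called 1 against Water in each drinking group, beside 0.234% in Acute and 1.05% in Chronic mice, and the gene was *Pcsk1n* each time. DESeq2 gave no adjusted p to 5 of the 44 genes in both comparisons with Water, and after ComBat-seq to 2 in Acute and 6 in Chronic mice. This recount by other tools was chosen after the data were seen. Of the 7 precursor processing genes, 0 passed by edgeR, with 5 higher and 2 lower than in Water mice in both drinking groups. The lowest p was that of *Pcsk1n*, which encodes proSAAS, an inhibitor of the convertase *Pcsk1*. Its log2 fold change was 0.14 in Acute (standard error 0.038, edgeR adjusted p = 0.327) and 0.18 in Chronic mice (standard error 0.038, adjusted p = 0.157, exact permutation p = 0.000278), with 9 of 9 mice above the Water mean in both groups and differences of mean log2 CPM of 0.208 and 0.153 within the batches for Chronic mice. Its adjusted p in Chronic mice was 0.0131 by DESeq2 and 0.00262 after ComBat-seq, where that in Acute mice was 0.0471. By edgeR without Water mouse 3, it was 0.0438 in Chronic mice. The convertases themselves had -0.02 (*Pcsk1*, Acute) and -0.06 (*Pcsk2*, Chronic), with adjusted p-values of 0.949 and 0.816, and *Scg5*, which encodes a chaperone of *Pcsk2*, had -0.04 in Chronic against Acute mice (adjusted p = 0.998).

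Of the 9 genes of peptidases that break opioid peptides down, 0 passed by edgeR, with 3 higher and 6 lower in Acute and 5 higher and 4 lower in Chronic against Water mice. *Thop1* had the lowest p on the higher side, with 0.06 in Acute and 0.11 in Chronic mice (adjusted p = 0.641 and 0.355). On the lower side, *Npepps* had -0.03 in Acute and *Lnpep* -0.08 in Chronic mice (adjusted p = 0.687 and 0.526). Between Chronic and Acute mice, they were *Anpep* (0.14) and *Lnpep* (-0.05), both with an adjusted p of 0.998.

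Of the 14 receptor signalling genes (inhibitory G proteins, potassium and calcium channels and adenylyl cyclases), 0 passed by edgeR, with 6 higher and 8 lower in both drinking groups. *Gnai2*, an inhibitory G protein subunit gene, had 0.06 in Acute and 0.09 in Chronic mice, with 9 of 9 Chronic mice above the Water mean (adjusted p = 0.56 and 0.29). *Kcnj6*, a potassium channel gene, had -0.14 in Acute mice, with 9 of 9 under the Water mean (adjusted p = 0.595). *Kcnj9*, of the same channel family, had 0.13 in Chronic against Acute mice (adjusted p = 0.998). *Adcy5*, the adenylyl cyclase gene that was among the nearest to *Penk*, had -0.15 in Chronic against Water mice and -0.20 in Chronic against Acute mice (adjusted p = 0.682 and 0.998).

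Of 15 receptor regulators, 14 were tested, since *Grk5* is listed for the second batch only, and 0 passed by edgeR, with 10 higher and 4 lower in Acute and 8 higher and 6 lower in Chronic against Water mice. *Grk6*, a receptor kinase gene, had 0.08 in Acute and 0.07 in Chronic mice, with 9 of 9 mice above the Water mean in both (adjusted p = 0.452 and 0.421), and *Grk3* had -0.15 in Acute mice (adjusted p = 0.497) and 0.13 in Chronic against Acute mice (adjusted p = 0.998). *Rgs9*, which is also in the striatum list, had -0.50 in Chronic against Water mice (adjusted p = 0.52). *Rgs4*, a regulator of G protein signalling, had -0.21 in Chronic against Acute mice (edgeR p = 0.00835, adjusted p = 0.998, 8 of 9 mice under the Acute mean). The medians of the 4 lists against Water lay between -0.02 and 0.03 on the log2 scale, beside 0.00115 and 0.0022 over all genes. In Chronic against Acute mice, 1 precursor processing gene was higher and 6 lower, and 7 peptidase genes were higher and 2 lower. Receptor signalling had 12 higher and 2 lower, and receptor regulators 4 higher and 10 lower. The medians in this comparison lay between -0.02 and 0.04, beside -0.000893 over all genes.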

How the data were processed

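The authors quantified paired-end reads with Salmon 0.14.1 against a GRCm38 transcriptome after quality checks with FastQC 0.11.8, summarized them by gene with tximport and GENCODE M21, and deposited whole-number counts for each mouse in a table per batch, before batch adjustment. The tables were joined on the Ensembl identifier without its version. 574 genes listed in the first table alone and 1596 in the second alone were left out, and no column was. Groups and batches came from the labels, and the numbers of the mice are those of the labels.

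Genes averaging 10 or more counts over the mice were tested in R 4.3.3 with edgeR 4.0.16 (TMM, quasi-likelihood test, batch as covariate, all 28 mice), with Benjamini-Hochberg adjustment over the 16266 genes and a threshold of 0.05. Normalized counts were scaled by the TMM library sizes. For scores and exact tests, log2 CPM (prior count 2) had batch means removed, and the group labels were permuted within batches over all 32340 regroupings (16170 for Chronic against Acute). Tests were 2-sided. A mouse was counted above or below a group mean on that scale. The p-values of correlations used 100000 resamples within batches. limma 3.58.1, DESeq2 1.42.0 and sva 3.50.0 served the alternatives. Same-numbered mice of the second batch were checked for pairing and deviated together (r over 0.1) in 4 of 16 pairs, and 55 pairs of libraries of the same group and batch all differed by more than sampling noise.

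The members and lists were chosen with earlier results of these data known. Named beyond the members were the genes of the striatum list (1 of its 8 genes entered the score and is not reported here), the gene of each pathway list with the lowest p in each direction and comparison, and the 3 genes (5 for *Penk*) with the highest r to each member. *Pdyn* relative to the striatum score, and the fits with both scores, with *Nts* left out or without Water mice 42 and 43, were added after the data were seen. The transcript quantification could divide reads between overlapping genes, and rounding of its estimates affects genes with few counts such as *Pomc*.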

Additional observations from a re-analysis of the deposited data

How the results depend on the processing

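Across 15 other settings and 28 fits that each left out 1 mouse, 0 members were called among those with an adjusted p. DESeq2 gave none for 7 of 24 member values with batch in the model and for 6 of 24 after ComBat-seq, all against Water and of *Pomc*, *Pnoc*, *Oprm1* and *Oprd1*. The number of all genes called moved more. In Acute and Chronic against Water mice, DESeq2 with batch in the model called 9 and 38 genes and ComBat-seq followed by DESeq2 called 30 and 88, in place of 0 and 3. limma-voom called 2 Acute genes and the fit with no filter on mean count called 1 Acute gene and 1 between Chronic and Acute mice. The first batch alone called 0 Chronic genes, and without Water mice 42 and 43 there were 25. Of the 44 pathway list genes, DESeq2 called 1 in Chronic mice, ComBat-seq followed by DESeq2 called 1 in each drinking group, and leaving out 1 mouse gave 0 to 1 in Chronic against Water mice, with *Pcsk1n* called without Water mouse 3 (adjusted p = 0.0438).

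Of 354 member fold changes under these settings, 24 changed sign, none of them called, and the causes were not tested. In the first batch alone, the Chronic against Water values were 0.0491 for *Penk*, 0.124 for *Pdyn* and 0.00691 for *Oprk1*, and the Chronic against Acute values -0.13 for *Pomc*, 0.0422 for *Pnoc* and 0.0435 for *Oprm1*. In the second batch alone, the Acute values were -0.0816 for *Pomc* and -0.0104 for *Oprk1*, the Chronic value of *Oprd1* was -0.0493 and *Oprl1* had -0.00989 in Chronic against Acute mice. With the striatum score, the Chronic values were 0.191 for *Penk*, 0.0973 for *Pdyn* and 0.0507 for *Oprk1*, and *Oprl1* had -0.00448 in Chronic against Acute mice. With the central amygdala score, *Pdyn* had -0.0433 in Acute against Water and *Pnoc* 0.0716 in Chronic against Acute mice (0.0442 with *Nts* left out of the score). With both scores, *Pdyn* had -0.0166 in Acute mice, *Penk* 0.148 and *Oprk1* 0.0225 in Chronic mice, and *Pnoc* 0.0567 and *Oprm1* 0.0189 in Chronic against Acute mice. Without Water mice 42 and 43, *Oprk1* had -0.00691 in Acute and *Oprd1* -0.00908 in Chronic mice.

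Leaving out 1 mouse, the Chronic against Water value ran from -0.212 to 0.0293 for *Pdyn*, from -0.0314 to 0.112 for *Oprd1* and from -0.11 to 0.0316 for *Oprk1*, and the Chronic against Acute value of *Pnoc* from -0.148 to 0.0191. The Acute against Water value of *Oprm1* lay between -0.224 and -0.00126. *Penk* minus the striatum score lay between 0.172 and 0.252 in Acute against Water mice, between 0.203 and 0.275 in Chronic against Water mice and between -0.0157 and 0.0664 for the difference between Chronic and Acute mice, where its residual after the fitted slope gave -0.045. With the list limited to *Drd2*, *Adora2a* and *Gpr6*, it was 0.0721 in Acute and 0.184 in Chronic mice, no longer under 0.05 by the exact permutation test. The correlation of *Penk* with the score was 0.954 with batch and group means removed.

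Mice with the same number in the second batch shared only that number, with r between -0.346 and 0.338. With the number as a replicate block, 0 members were called, and *Penk* had 0.292 in Acute and -0.138 in Chronic against Water mice. Depth limited *Pomc*. The minimum of 100 counts left out *Pomc* and *Oprm1*. It removed no gene of the 8 marker lists scored, so it is no other setting for their scores.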
